A study of Mus musculus with 9 samples.

Results

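Keratin-associated proteins are encoded by the Krtap genes. All genes of the deposited expression table whose symbol begins with Krtap were taken, which gave 57 of 34637 genes. They were described in each library of mouse back skin and compared between mice fed Fangji Dihuang formulation (FJDHF) and untreated dermatitis mice (Model). The question was whether the hair shaft genes in the biopsy differed between the groups.

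Hair is built from keratin filaments that lie in a matrix of keratin-associated proteins. The high-sulfur and ultra-high-sulfur proteins are rich in cysteine and cross-link the filaments through disulfide bonds, while the high-glycine-tyrosine proteins are small and rich in those amino acids. The genes are read in the differentiating cortex and cuticle of a growing follicle, are silent in a resting follicle, and sit in clusters.

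All mice were male C57BL/6, aged 6 to 8 weeks, and the back was shaved before the first application. Both groups received 2,4-dinitrochlorobenzene (DNCB) on the back, with 200 μL of a 1% solution on day 1 and 100 μL of a 0.5% solution repeatedly from day 4 to day 21. After day 7 the FJDHF group (5 samples) was fed the formulation daily and the Model group (4 samples) was given water, until day 28. The dose was the medium one of the study. No library of unsensitized skin was analysed here, so no value below is a change from normal skin.

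Skin RNA with poly(A) tails was sequenced as strand-specific libraries. Total counts were 74648669 to 79474215 per library. The table columns carry the codes MR and MXL, which are not explained. MXL spells the initials of a Chinese term for model and had as many columns (4) as there are Model samples, so MXL was read as Model and the 5 MR columns as FJDHF. Which mouse a column came from is unknown, and codes such as MR3_4 or MXL12 could not be read further. All p-values therefore measure the spread between libraries.

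The 57 genes lay in 5 clusters of the mouse genome (GRCm38). The largest held 24 genes on chromosome 16 (chr16:88610705-89571183), from Krtap24-1 to Krtap11-1. Another 23 genes, from Krtap3-3 to Krtap17-1, lay on chromosome 11 (chr11:99550130-99993994). The 5 Krtap5 genes were on chromosome 7 (chr7:142174535-142304594), 3 genes from Krtap12-1 to Krtap10-10 on chromosome 10 (chr10:77720599-77837252), and Krtap28-10 and Krtap28-13 on chromosome 1 (chr1:83041524-83061921). The annotation (GENCODE M21) gave 52 of the 57 genes a single exon in every transcript.

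By subfamily number, 23 genes belonged to the ultra-high-sulfur class, 18 to the high-sulfur class and 16 to the high-glycine-tyrosine class. The coding sequences, found for 56 of the 57 genes, followed these names in their medians, but the ranges of the classes overlapped. Cysteine codons made up a median of 37.6% of the codons in the ultra-high-sulfur genes, 20.2% in the high-sulfur genes and 8.05% in the high-glycine-tyrosine genes. The cysteine share ran from 14.6% to 42.9% in the first class, 4.0% to 30.6% in the second and 0.0% to 16.7% in the third. Glycine and tyrosine codons together made up a median of 63.3% in the last class. Krtap16-3 went against its name, with 8.14% cysteine codons and 59.3% glycine and tyrosine codons, and was still counted as high-sulfur. Krtap29-1, counted as ultra-high-sulfur, had 14.6% cysteine codons, the lowest of its class.

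The start of the coding sequence shows the composition of single genes. Each sequence below holds the first 120 coding bases (40 codons) on the gene's own strand, from the GENCODE M21 transcripts. In Krtap4-1 (chr11:99628063-99628182, minus strand), the ultra-high-sulfur gene with the highest level, 14 of the 40 codons were cysteine codons, and in the high-sulfur gene Krtap1-5 (chr11:99580846-99580965, minus strand) 12 were. Capitals mark the cysteine codons in both.
Krtap4-1: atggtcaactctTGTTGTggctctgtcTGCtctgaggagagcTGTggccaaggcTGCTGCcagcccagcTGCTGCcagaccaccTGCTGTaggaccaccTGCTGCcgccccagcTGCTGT
Krtap1-5: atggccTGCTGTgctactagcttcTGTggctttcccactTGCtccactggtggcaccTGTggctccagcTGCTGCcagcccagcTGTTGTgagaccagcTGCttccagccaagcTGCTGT

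In the high-glycine-tyrosine genes Krtap19-5 (chr16:88896303-88896422, minus strand) and Krtap6-1 (chr16:89031718-89031837, plus strand), glycine and tyrosine codons filled 26 and 29 of the 40 positions. Capitals mark those codons.
Krtap19-5: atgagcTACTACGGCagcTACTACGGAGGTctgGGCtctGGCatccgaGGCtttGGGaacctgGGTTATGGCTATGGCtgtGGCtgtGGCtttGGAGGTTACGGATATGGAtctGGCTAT
Krtap6-1: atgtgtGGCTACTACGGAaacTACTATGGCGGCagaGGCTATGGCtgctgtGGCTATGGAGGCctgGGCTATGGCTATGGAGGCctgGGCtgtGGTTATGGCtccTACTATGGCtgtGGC

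The same 40 codons of Krtap6-1 held 5 cysteine codons, now in capitals. The sequence is repeated because the glycine-tyrosine genes with more cysteine are described apart from the others further on.
Krtap6-1: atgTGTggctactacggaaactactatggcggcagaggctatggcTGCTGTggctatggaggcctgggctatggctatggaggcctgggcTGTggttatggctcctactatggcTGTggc

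The sequences before the starts of the genes were also read. A link between these sequences and the levels in the libraries was not tested. RefSeq promoters (250 bases before to 50 bases after the start, GRCm38.p6) were matched by symbol for 50 of the 57 genes. TATAAA, the core of the TATA box, lay on the sense strand 15 to 40 bases before the start in 31 of 50 promoters (62.0%), against 1.99% of the 32851 promoters of all genes. It began 27 to 37 bases before the start, with a median of 31. The count was 14 of 19 in the ultra-high-sulfur class, 11 of 17 in the high-sulfur class and 6 of 14 in the high-glycine-tyrosine class.

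On either strand and anywhere in the 300 bases, TATAAA stood in 82.0% of these promoters and in 13.6% of all promoters. CTTTGA, the core bound by LEF1, a transcription factor of the hair matrix, stood on either strand in 30.0% of them and in 16.0% of all. The 100 bases before the start are shown for 4 genes among the highest of their class or cluster. All 4 have TATAAA 15 to 40 bases before the start, in capitals. The highly expressed genes Krtap15, Krtap14 and Krtap6-1 did not have it there, and no promoter was matched for Krtap7-1. The genes shown are Krtap8-1 (chr16:89487953-89488052), Krtap11-1 (chr16:89571184-89571283), Krtap4-1 (chr11:99628240-99628339) and Krtap1-5 (chr11:99581017-99581116), all on the minus strand.
Krtap8-1: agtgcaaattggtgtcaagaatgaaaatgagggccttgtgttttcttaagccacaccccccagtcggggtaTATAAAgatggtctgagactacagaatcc
Krtap11-1: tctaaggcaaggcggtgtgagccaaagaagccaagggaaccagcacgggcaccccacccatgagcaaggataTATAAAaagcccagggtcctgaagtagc
Krtap4-1: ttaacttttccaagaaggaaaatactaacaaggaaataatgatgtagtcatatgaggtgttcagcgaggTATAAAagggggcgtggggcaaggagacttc
Krtap1-5: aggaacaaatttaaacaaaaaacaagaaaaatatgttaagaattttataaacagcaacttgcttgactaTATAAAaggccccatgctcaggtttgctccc

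Some counts cannot be given to 1 gene with certainty. In 25 of the 57 genes at least 1 stretch of 75 bases also occurred in another Krtap transcript. The largest shares were 39.1% of Krtap3-3 found in Krtap3-2, and 34.6% of Krtap31-1 and 36.1% of Krtap31-2 found in each other. Krtap10-10 and Krtap15 overlapped another annotated gene on the same strand, and Krtap24-1 overlapped one on the opposite strand. The spans of Krtap14 and Krtap15 overlapped on opposite strands.

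The family was led by a few genes. Per length, as FPKM (fragments scaled by transcript length and library depth), 7 of the 57 genes had a mean over 100 in the 9 libraries, 23 had 10 to 100, 17 had 1 to 10 and 10 were under 1. Krtap7-1 was highest with a mean of 849.6 FPKM, followed by Krtap8-1 with 529 FPKM and Krtap15 with 329 FPKM. These 3 genes made up 48.6% of the summed mean FPKM, and the highest 10 genes made up 76.4%. All 7 genes over 100 FPKM lay on chromosome 16.

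The clusters differed in level. Mean FPKM ran from 7.45 to 849.6 in the chromosome 16 genes and from 0.525 to 67.4 in the chromosome 11 genes, where Krtap1-5 was highest. The genes of chromosome 1 had 8.91 FPKM (Krtap28-10) and 2.49 FPKM (Krtap28-13), and those of chromosome 10 had 0.236 to 2.91 FPKM. The Krtap5 genes of chromosome 7 were lowest, with 0.0192 to 0.731 FPKM, and Krtap5-1, Krtap5-2 and Krtap5-3 were at or under 12 counts in at least 8 of the 9 libraries. That floor was set because counts of 4, 8 and 12 were more frequent than their neighbours, so that 12 counts stand for 3 steps of 4. It covers counting error only and lies at 0.150 to 0.166 CPM (counts per 1e6, scaled by TMM).

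The summed level differed more between libraries of a group than between the groups. The 57 genes together had 1570 CPM in MR1, 6447 in MR3, 2169 in MR3_4, 2324 in MR4_5 and 691 in MR5. In the Model libraries they had 1955 CPM in MXL1, 2058 in MXL12, 4770 in MXL3_4 and 1065 in MXL_3. The highest and the lowest sum were both FJDHF libraries, 9.32-fold apart, and all Model sums lay between them. The members took 0.0704% of all counts in MR5 and 0.667% in MR3.

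Krtap7-1 was the highest gene by FPKM in 8 of 9 libraries and Krtap8-1 in MR5. The high-glycine-tyrosine genes made up 60.2% to 76.7% of the summed FPKM, the high-sulfur genes 20.1% to 37.3% and the ultra-high-sulfur genes 2.49% to 4.42%. The share of the high-glycine-tyrosine class was highest in MR1 and MXL1, at 76.7% and 76.0%.

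**Figure D1:**
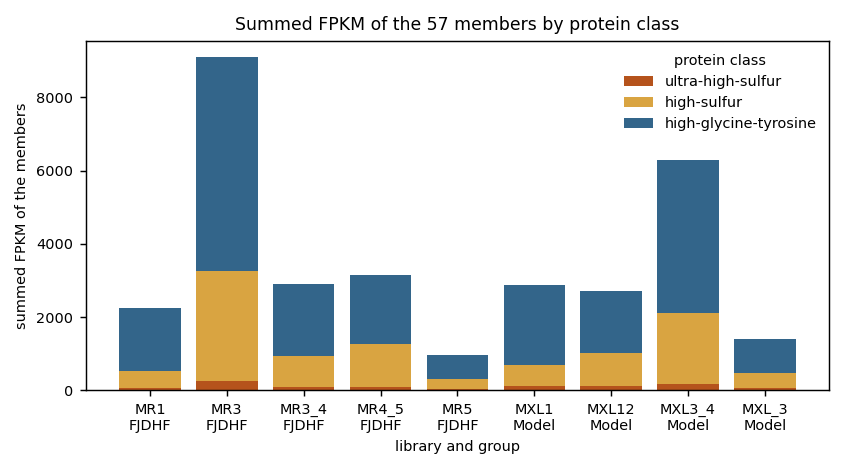
Summed FPKM of the 57 Krtap genes in each library, with libraries and groups on the horizontal axis and the 3 protein classes stacked. MR3 and MXL3_4 stand above the other libraries with sums of 9091 and 6287, and MR5 is lowest with 963.

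MR3 had the highest level of 46 of the 54 genes tested, and MR5 the lowest of 45. Over all 20817 genes tested, MR3 was highest for 7.67% and MR5 lowest for 15.0%. Of the other 8 genes, Krtap4-8, Krtap4-9, Krtap4-13, Krtap9-5 and Krtap8-1 were highest in MXL3_4, Krtap6-3 and Krtap20-2 in MXL1, and Krtap5-4 in MXL12. Among the 45 genes over the floor in every library, the highest library exceeded the lowest 5.55-fold (Krtap8-1) to 57.9-fold (Krtap19-4).

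**Figure D2:**
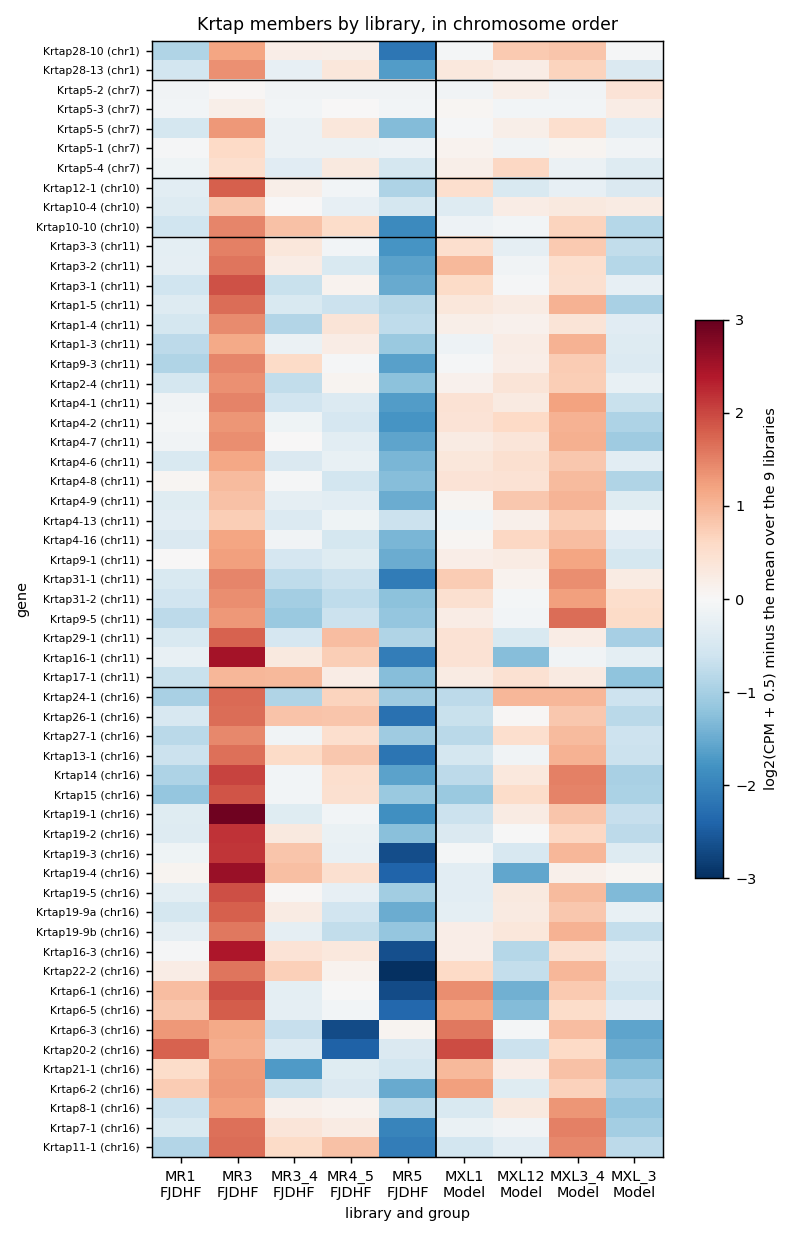
Level of each Krtap gene (vertical axis, in chromosome order) in each library (horizontal axis), as log2(CPM + 0.5) minus the gene's mean over the 9 libraries, with colours ending at 3 in either direction. MR3 is red for nearly all genes and MR5 blue, while Krtap6-3 and Krtap20-2 are highest in MXL1 and lowest in MR4_5.

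In the comparison of FJDHF with Model, no Krtap gene passed the test. In the edgeR quasi-likelihood fit, with p-values adjusted by Benjamini and Hochberg over 20817 genes, 0 of 54 tested members passed an adjusted p of 0.05 with a fold of at least 2, and neither did any other gene in that fit (0.0% of all genes). DESeq2 called 0 members and 2 of the 20817 genes (0.00961%), and limma on log2(FPKM + 1) called 0 members and 0 genes. At an unadjusted p under 0.05 there were 0 of 54 members by each of the 3 tools, against 1.57% of all genes by edgeR, 2.21% by DESeq2 and 1.86% by limma. The smallest unadjusted p was 0.123 in the edgeR fit, for Krtap19-4.

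The groups overlapped for every tested member, and did not overlap for 0.514% of all genes. In the edgeR fit 28 members were higher and 26 lower in the FJDHF libraries, and 44.1% of all genes tested were higher, while with limma on log2(FPKM + 1) 17 members were higher and 53.1% of all genes. The median log2 fold change of the members was 0.02, and that of all genes was -0.03. A fitted difference of at least 2-fold in either direction, at any p, was found for 6 of 54 members and for 3.98% of all genes. The mean of the summed level was 2640 ± 2222 CPM (SD, n = 5) in FJDHF and 2462 ± 1602 CPM (SD, n = 4) in Model, a ratio of 1.07.

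Differences of 2-fold could not be shown at this spread. The standard error of the log2 fold change was 0.53 to 1.13, no member had a 95% interval (from the t distribution of the same test) that lay within 2-fold in both directions, and the median interval ran from -1.46 to 1.51. In skin as a whole, fewer hair-forming cells and less RNA per cell cannot be told apart.

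**Figure D3:**
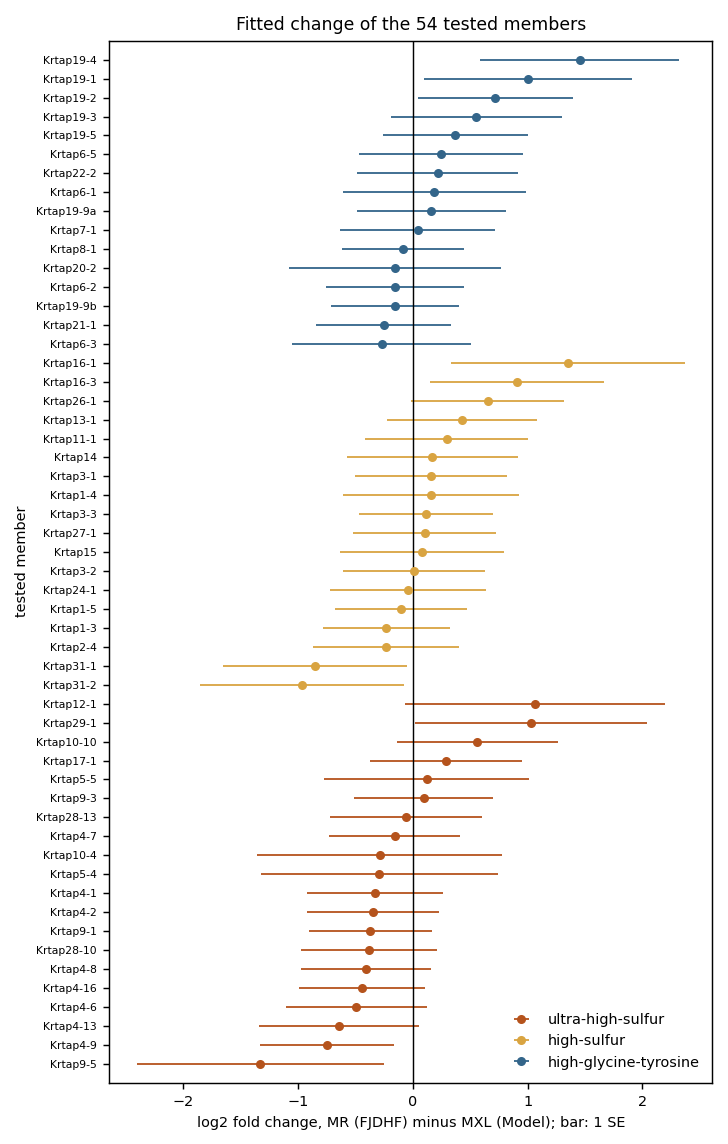
Log2 fold change of the 54 tested Krtap genes, FJDHF minus Model, from edgeR, grouped and coloured by protein class; bars show 1 standard error. The points run from -1.33 (Krtap9-5) to 1.45 (Krtap19-4), and most of the bars cross 0.

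Among the high-glycine-tyrosine genes 10 were higher and 6 lower in FJDHF, with a median log2 fold change of 0.17, whereas limma on log2(FPKM + 1) gave 6 higher and 10 lower and a median of -0.040. Krtap7-1, the highest gene of the family, had 308 CPM in MR1, 1341 in MR3, 542 in MR3_4, 504 in MR4_5 and 106 in MR5, and 366 in MXL1, 393 in MXL12, 1211 in MXL3_4 and 207 in MXL_3. Its 2 highest libraries came from different groups, and its log2 fold change was 0.04 ± 0.68 (SE). Krtap8-1 had 121 CPM (MXL_3) to 672 CPM (MXL3_4), the narrowest range of the members over the floor, and a log2 fold change of -0.09 ± 0.53 (SE).

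Krtap19-4, with the largest log2 fold change, had 5.71 CPM in MR1, 34.7 in MR3, 10.4 in MR3_4, 7.61 in MR4_5 and 0.599 in MR5. In Model it had 4.19 CPM in MXL1, 1.50 in MXL12, 6.01 in MXL3_4 and 5.53 in MXL_3. MR3 lay far above the rest, MR5 lay below all Model libraries, and MR1 lay within the Model range. Its log2 fold change was 1.45 ± 0.87 (SE, 95% interval -0.47 to 3.38), with an unadjusted p of 0.123 by edgeR and of 0.444 in the exact two-sided permutation test, where 0.00794 is the smallest p that 5 against 4 libraries allow.

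Krtap19-1, in the same cluster, had a log2 fold change of 1.00 ± 0.90 (SE) and was also highest in MR3, at 70.1 CPM against 2.10 to 16.2 CPM in the other 8 libraries.

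A run of 6 neighbouring high-glycine-tyrosine genes had another profile over the libraries. They are Krtap6-1, Krtap6-5, Krtap6-3, Krtap20-2, Krtap21-1 and Krtap6-2, which follow each other on chromosome 16 (chr16:89031699-89420111). The set was taken as the genes of the class with at least 11% cysteine codons, and was chosen after its values were seen. These genes had 11.5% to 16.7% cysteine codons, against 0.0% to 9.20% in the other 9 with a coding sequence. Their share of the summed FPKM of all members was 28.9% in MR1 and 31.1% in MXL1, 1 library of each group. In the other 7 libraries it was 7.89% to 13.9%.

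Krtap6-3 shows this most clearly. It had 46.9 CPM in MR1, 41.8 in MR3, 11.5 in MR3_4, 2.51 in MR4_5 and 20.0 in MR5, and 58.0 in MXL1, 18.2 in MXL12, 36.3 in MXL3_4 and 5.95 in MXL_3. Its highest library was MXL1 and its lowest MR4_5, neither of which was at an extreme of the summed level. Krtap20-2 followed it, with 22.1 CPM in MXL1, 19.4 CPM in MR1 and 0.592 CPM in MR4_5.

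Krtap6-1, the highest of the 6 by FPKM, had 134 CPM in MR1, 270.2 in MR3, 57.7 in MR3_4, 69.6 in MR4_5 and 10.6 in MR5. In Model it had 187 CPM in MXL1, 25.5 in MXL12, 122 in MXL3_4 and 46.2 in MXL_3. Per length it stood at 0.456 of Krtap7-1 in MR1 and 0.535 of it in MXL1, but at 0.0679 to 0.233 of it in the other libraries. The summed level of the 6 genes was 314 ± 259 CPM (SD, n = 5) in FJDHF and 307 ± 209 CPM (SD, n = 4) in Model.

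**Figure D4:**
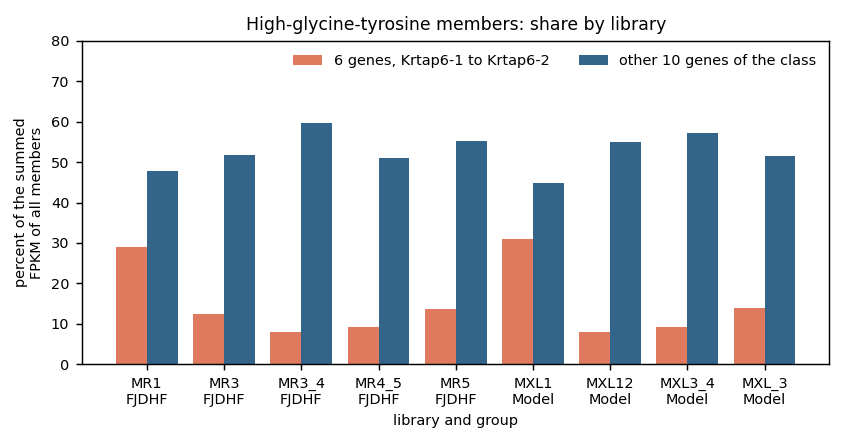
Share of the summed FPKM of all 57 members, in percent, taken in each library by 6 neighbouring high-glycine-tyrosine genes (Krtap6-1 to Krtap6-2) and by the other 10 genes of that class. The 6 genes reach 28.9% in MR1 and 31.1% in MXL1 and stay between 7.89% and 13.9% elsewhere.

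Of the high-sulfur genes 12 were higher and 6 lower in FJDHF, with a median log2 fold change of 0.11, which limma on log2(FPKM + 1) turned to 7 higher and 11 lower and a median of -0.10. Krtap15 had 118 CPM in MR1, 985 in MR3, 252 in MR3_4, 372 in MR4_5 and 123 in MR5, and 124 in MXL1, 390.0 in MXL12, 750.0 in MXL3_4 and 138 in MXL_3. Each group held both low and high libraries, and the log2 fold change was 0.08 ± 0.72 (SE). Krtap11-1 and Krtap14, the next by FPKM with means of 203 and 201, had log2 fold changes of 0.29 ± 0.71 and 0.17 ± 0.74 (SE).

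Krtap16-1 and Krtap16-3 were the high-sulfur genes with the smallest unadjusted p of those higher in FJDHF. Krtap16-1 had 1.55 CPM in MR1, 12.9 in MR3, 2.41 in MR3_4, 3.50 in MR4_5 and 0.0637 in MR5, and 0.490 to 2.73 CPM in the Model libraries. MR3 was far above the next library and MR5 was at the floor. The log2 fold change was 1.35 ± 1.02 (SE) for Krtap16-1 and 0.91 ± 0.76 (SE) for Krtap16-3. Their unadjusted p was 0.212 and 0.260 by edgeR, and 0.563 and 0.770 in the exact permutation test.

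Krtap31-1 and Krtap31-2 were the high-sulfur genes with the lowest log2 fold changes. Krtap31-1 had 7.42 CPM in MR3 and 0.166 to 1.58 CPM in the other FJDHF libraries, against 4.38, 2.57, 7.03 and 2.91 CPM in MXL1, MXL12, MXL3_4 and MXL_3. All Model libraries thus lay above 4 of the 5 FJDHF libraries and below MR3. The log2 fold changes were -0.85 ± 0.80 and -0.97 ± 0.89 (SE), with exact permutation p of 0.151 and 0.143. The part of the reads that these similar genes share (above) could not be assigned to either.

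Krtap1-5, the highest gene of the chromosome 11 cluster, had 46.3 CPM in MR1, 193 in MR3, 43.8 in MR3_4, 38.3 in MR4_5 and 33.9 in MR5. In Model it had 76.8 CPM in MXL1, 71.6 in MXL12, 126 in MXL3_4 and 30.6 in MXL_3. In 4 of 5 FJDHF libraries it lay below 3 of 4 Model libraries, while MR3 was above all, and the log2 fold change was -0.10 ± 0.57 (SE). Krtap3-3 at the start of the cluster had 0.12 ± 0.58 (SE), and Krtap24-1, the first gene of the chromosome 16 cluster, had -0.04 ± 0.68 (SE).

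The ultra-high-sulfur genes had 6 higher and 14 lower in FJDHF and a median log2 fold change of -0.31, and with limma on log2(FPKM + 1) 4 higher and 16 lower and a median of -0.24. No member of the class passed the test. Krtap4-1, the highest of the class, had 19.6 CPM in MR1, 60.5 in MR3, 14.1 in MR3_4, 15.9 in MR4_5 and 6.22 in MR5, and 28.9 in MXL1, 25.7 in MXL12, 49.2 in MXL3_4 and 13.1 in MXL_3. MR3 was again highest and MR5 lowest. Its log2 fold change was -0.33 ± 0.59 (SE), and those of Krtap4-2 and Krtap4-7 were -0.35 ± 0.58 and -0.16 ± 0.57 (SE).

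Krtap9-5 had the lowest log2 fold change of the family. It had 2.47 CPM in MR3 and 0.265 CPM or less in the other FJDHF libraries, of which MR3_4 and MR5 were at the floor. In Model it had 0.898 CPM in MXL1, 0.635 in MXL12, 3.30 in MXL3_4 and 1.27 in MXL_3. The log2 fold change was -1.33 ± 1.08 (SE, 95% interval -3.72 to 1.06), with p = 0.245 by edgeR and p = 0.143 in the exact permutation test. Krtap4-9 had 1.72 ± 1.32 CPM (SD, n = 5) in FJDHF and 2.89 ± 1.40 CPM (SD, n = 4) in Model, and its log2 fold change was -0.75 ± 0.59 (SE, exact permutation p = 0.175).

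The small clusters gave no exception. Krtap28-10 and Krtap28-13 had log2 fold changes of -0.38 ± 0.59 and -0.06 ± 0.66 (SE). On chromosome 10, Krtap12-1 was listed at 0 in MR5, had 2.75 CPM in MR3 and 0.185 to 0.835 CPM in the other libraries, with a log2 fold change of 1.06 ± 1.13 (SE). Krtap10-10 had 0.56 ± 0.70 (SE). Of the Krtap5 genes only Krtap5-4 and Krtap5-5 could be tested, with -0.29 ± 1.03 and 0.12 ± 0.89 (SE). Krtap17-1, the last gene of the chromosome 11 cluster, had 0.29 ± 0.67 (SE).

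The directions changed with the library left out. MR3 was the highest library of 46 of the 54 members and MR5 the lowest of 45. Leaving out either therefore shifts the FJDHF level of most members by construction. Without MR3, 5 of 54 members were higher in FJDHF, against 39.9% of all genes, and the median log2 fold change was -0.72. In that fit 11 members had an unadjusted p under 0.05 in edgeR, all lower in FJDHF, against 1.51% of all genes. The members moved together (below), so these 11 are not separate results. Of these 11, 10 lay on chromosome 11: Krtap31-2, Krtap9-5, Krtap31-1, Krtap4-6, Krtap4-16, Krtap1-5, Krtap4-13, Krtap4-9, Krtap4-1 and Krtap2-4. The remaining gene was Krtap19-9b. No member passed the adjusted threshold.

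Krtap31-2 then had a log2 fold change of -2.64 ± 0.56 (SE) and Krtap9-5 one of -3.44 ± 0.77 (SE), and the adjusted p of both in edgeR was 1.00. Without MR5, 39 of 54 members were higher in FJDHF, against 45.0% of all genes, and the median was 0.28. Krtap19-4 and Krtap16-1 then had an unadjusted edgeR p under 0.05, both higher, against 1.90% of all genes. Among the Model libraries, 37 of 54 members were higher in FJDHF without MXL3_4 (median 0.29, against 46.2% of all genes) and 17 of 54 without MXL_3 (median -0.21, against 47.1% of all genes), with 0 members at an unadjusted p under 0.05 in both. The ratio of the mean summed level was 0.686 without MR3, 1.27 without MR5, 1.56 without MXL3_4 and 0.902 without MXL_3, and nothing in the labels sets these libraries apart.

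The members rose and fell together from library to library. The Pearson r of a member's log2 level with the log2 sum of the other members over the 9 libraries had a median of 0.874, and was above 0.8 for 39 of 54 members. Among the other 20763 genes tested 1.06% had an r above 0.8 with the summed level, and the median over all genes was 0.0036. The points of each correlation share the library and its depth, so this is a description. Krtap7-1 had the highest value, 0.983.

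The lowest values belonged to Krtap6-3 with 0.270, Krtap20-2 with 0.280, Krtap21-1 with 0.571 and Krtap5-4 with 0.583. The 6 neighbouring genes described above had 0.270 to 0.706, and the other 10 high-glycine-tyrosine genes had 0.745 to 0.983. That set was chosen after its values were seen, so this contrast is a description. Krtap16-1, Krtap31-1 and Krtap9-5 had 0.766, 0.794 and 0.685.

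The 10 genes outside the family whose level over the 9 libraries was most like the summed Krtap level had a Pearson r of 0.942 to 0.975. Krt32 and Krt87, keratins of the hair, had 0.951 and 0.945. Dlx4, a homeobox gene, had 0.943 and Gja3, which encodes a connexin, 0.962. The others were Csdc2, Gm12034, A030003K21Rik, Gm47955, Gm6217 and Gm7544. The last 4 of these lay at chr1:82930571-82960924, before the cluster of Krtap28-10 on the same chromosome. Some were low: Gm7544 and Gm47955 were under the floor in MR5, at 0.0382 and 0.140 CPM. Gm12034, with the highest r, ranged only from 0.421 to 1.35 CPM. The levels of the 10 genes were taken as log2(CPM + 0.5).

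The sums of lists of follicle genes were set beside that of the members. The hair cortex and cuticle keratins form the filaments that the Krtap proteins bind. All 15 genes analysed here, which did not include Krt85, were above 0 counts in every library. Krt40, with 3 counts in MR5, was under the floor there. The sum of the 15 genes was 178 CPM (MR5) to 2666 CPM (MR3) in FJDHF. In Model it was 340.1 CPM (MXL_3) to 1137 CPM (MXL3_4). Of the 15, 11 were higher and 4 lower in FJDHF, with a median log2 fold change of 0.49, and 0 had an unadjusted edgeR p under 0.05. The Pearson r of the log2 sum with that of the members was 0.941 (Spearman's rho 0.900), and 0.817 without the 2 libraries farthest from the median.

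The members did not keep a fixed ratio to these keratins. The summed CPM of the members was 2.16 times that of the hair keratins in MXL1, 2.42 in MR3, 2.85 in MR4_5, 3.13 in MXL_3, 3.25 in MR3_4, 3.89 in MR5, 4.20 in MXL3_4, 4.45 in MR1 and 4.87 in MXL12. Libraries of both groups stood at the low and at the high end. With the log2 sum of these keratins as a covariate, chosen after seeing the data, 6 members had an unadjusted edgeR p under 0.05, all on chromosome 11 and lower in FJDHF, and 1.71% of all genes did. They were Krtap9-5, Krtap31-1, Krtap31-2, Krtap4-6, Krtap4-9 and Krtap4-13, with log2 fold changes of -0.88 to -2.54 and an adjusted p of 1.00.

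The inner root sheath and companion layer list, with 12 genes such as Krt71 and Tchh, had 2357 CPM (MR5) to 13196 CPM (MR3). Its r with the members was 0.870, and 0.735 without the 2 farthest libraries. The 14 hair shaft regulators, among them Foxn1 and Hoxc13, which switch on hair keratin genes, had 183 CPM (MXL_3) to 599.9 CPM (MR3). Their r was 0.904, and 0.912 without the 2 farthest libraries. Foxn1 alone had an r of 0.920 with the summed level, and Hoxc13 0.777. The 8 melanocyte genes, which mark the pigment cells of a growing follicle, had 53.6 CPM (MXL_3) to 363 CPM (MR3) and an r of 0.732 (0.743 without the 2 farthest libraries). All 8 were higher in FJDHF by fitted value, against 44.1% of all genes, with a median log2 fold change of 0.69 and a ratio of the mean sums of 1.58. Of the inner root sheath and companion layer genes 6 were higher and 6 lower, and of the regulators 10 and 4, with medians of 0.05 and 0.08.

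The sum of the telogen list, 10 genes chosen for the bulge and secondary germ of the resting follicle, did not follow the members. Whether these genes mark only resting follicles in whole skin was not tested. The sum ranged only from 717 CPM (MR4_5) to 1205 CPM (MXL_3), and its r with the members was -0.249 (-0.494 without the 2 farthest libraries). Cd34 was the highest gene of the list, with means of 390 CPM in FJDHF and 563 CPM in Model, and had an r of -0.351. The whole list had means of 795 and 999 CPM, and in MXL_3 Cd34 made up 961 of the 1205 CPM. The r of the sum thus weighs Cd34 most. Lgr5 had -0.073, and the other genes of the list had 0.130 (Nfatc1) to 0.514 (Lhx2). Of the genes of this list 4 were higher and 6 lower in FJDHF, with a median of -0.15. In each of these 5 lists 0 genes had an unadjusted p under 0.05 in edgeR. The part of the follicle content of a biopsy in the Krtap values was not tested.

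**Figure D5:**
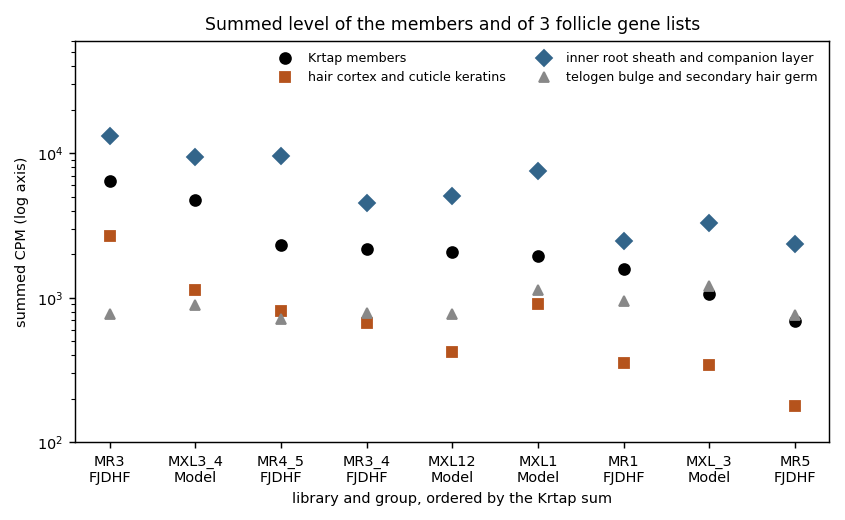
Summed CPM (log axis) of the Krtap genes and of 3 lists of follicle genes in each library, ordered from the highest to the lowest Krtap sum. The hair keratins fall from 2666 in MR3 to 178 in MR5 along with the Krtap genes. The telogen list, in which Cd34 is the highest gene, stays between 717 and 1205.

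Lists for the other tissues of the biopsy had lower correlations with the members than the hair keratins had. The Pearson r with the summed Krtap level was 0.403 for basal epidermis, -0.193 for differentiated epidermis, -0.0593 for sebaceous gland, 0.0202 for skeletal muscle, 0.0444 for white fat, -0.180 for neutrophils and 0.248 for proliferation. Without the 2 libraries farthest from the median it was, in this order, 0.249, 0.085, 0.230, -0.479, 0.024, -0.216 and 0.573. MXL12 stood apart in the neutrophil list, with 1171 CPM against 21.2 to 191 CPM in the other libraries, and MXL_3 in the muscle list, with 13099 CPM. The differentiated epidermis list was 11663 ± 2997 CPM (SD, n = 5) in FJDHF and 5347 ± 2634 CPM (SD, n = 4) in Model. All 8 of its genes had a higher fitted value in FJDHF, against 44.1% of all genes, with a median log2 fold change of 0.75. Of the 8, 4 (Krt1, Krt10, Ivl and Krtdap) had an unadjusted edgeR p under 0.05, against 1.57% of all genes. The 8 sebaceous gland genes all had a lower fitted value in FJDHF (median -0.45). Of these 1, Mc5r, had an unadjusted edgeR p under 0.05, against the same 1.57%. The 6 neutrophil genes were also all lower by fitted value (median -1.02), but this list and the other 4 had 0 genes at an unadjusted p under 0.05. No gene of any list passed the adjusted threshold in edgeR, and the part of these tissues in the Krtap values was not tested. In MR3, where the Krtap sum was highest, the differentiated epidermis list was lowest of the FJDHF libraries, at 7715 CPM. In MR5 this list was highest, at 14813 CPM. The Model libraries did not show this order. MXL_3 was lowest of them in both sums, with 3189 CPM for the epidermis list. MXL3_4, highest of them in the Krtap sum, had 4992 CPM, between MXL12 (4068 CPM) and MXL1 (9140 CPM).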

How the data were processed

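Back skin RNA of 4 Model and 5 FJDHF samples was measured by strand-specific poly(A) RNA-seq (paired reads of 150 bases). The authors deposited raw counts per gene for 55401 genes and FPKM values, normalized for length and depth, for 34637 genes. The submitters' processing notes name HISAT, StringTie, DESeq2 and mm10, without versions, and the annotation release is not given in the sources used here. The FPKM table repeats the counts in 9 columns, which were identical and were not used.

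The count test was edgeR's quasi-likelihood test (version 4.0.16 under R 4.3.3, with filterByExpr, TMM, Benjamini-Hochberg adjustment over all genes tested and no covariate), with the paper's thresholds (adjusted p under 0.05, at least 2-fold). Members were tested in the fit over all genes. Alternatives were DESeq2 1.42.0, limma 3.58.1 on log2(FPKM + 1) and log2(FPKM + 0.1), other filters, a replicate block and leaving out each library. Exact permutation tests used mean log2(CPM + 0.5) over all 126 splits. The scripts were tested on simulated counts. Counts of 4, 8 and 12 were more frequent than their neighbours, so deposited counts may not be single reads.

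Named genes were the 3 highest by FPKM in each class, the 5 smallest p, the 3 highest and 3 lowest log2 fold changes, the first, last and highest of each cluster, and the 10 genes most like the summed level. Other members are given as counts and ranges, or were named after their values were seen (Krtap19-1, Krtap6-3, Krtap20-2 and the other genes of that run, and those past an unadjusted p in an alternative). Members and the 12 gene lists were chosen with earlier results of these data known. Gene models and coding sequences came from GENCODE M21 and promoters from RefSeq (GRCm38.p6).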

Additional observations from a re-analysis of the deposited data

Results flagged for a closer look

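Within each group, a library was looked for that lay far from the others of its group by Dixon's criterion. Over 84 such looks 4 were found, and chance gives about 1 in 20, or 4.2. Krtap1-5 was 193 CPM in MR3 against 33.9 to 46.3 CPM in the other FJDHF libraries. The gap was 0.822 of the range of log2(CPM + 0.5), the scale used for all 4 genes. Krtap31-2 was 3.21 CPM in MR3 against 0.102 to 0.452 CPM (gap 0.748). Krtap9-5 was 2.47 CPM in MR3 against 0.0382 to 0.265 CPM (gap 0.795). The lowest values of both lay at the floor, so their gaps depend on the added 0.5. Krtap17-1 was 0.498 CPM in MXL_3 against 2.25 to 2.66 CPM in the other Model libraries (gap 0.880). All 4 genes lie on chromosome 11.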

How the results depend on the processing

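In every alternative run, 0 members passed the adjusted threshold. The number with an unadjusted p under 0.05 was 0 as reported (1.57% of all genes), 6 with the hair keratin covariate (1.71%), 1 (Krtap9-5) with limma on log2(FPKM + 0.1) (1.85%), 1 (Krtap19-4) with the replicate block (1.24%), and 0 to 11 when each library was left out (1.06% to 3.45%), the 11 being without MR3 (1.51%). The median log2 fold change of the members was 0.02 as reported, -0.25 with the covariate, -0.17 and -0.25 with limma on log2(FPKM + 1) and log2(FPKM + 0.1), and -0.72 to 0.29 when each library was left out. The ratio of the mean summed level ran from 0.686 to 1.56 over the libraries left out, being 0.686 without MR3, 0.902 without MXL_3 and 1.56 without MXL3_4. The cause of these differences was not tested.

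The numbers shared by codes of both groups (1, 3 and 3_4) were tried as a replicate block over those 6 libraries, leaving out the other 3, which gave a median of 0.23. The same 6 libraries without the block gave a median of 0.40 and also Krtap19-4 at an unadjusted p under 0.05. They are not taken as pairs, since the deviations of same-numbered libraries correlated at 0.142, 0.0912 and -0.0753.

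Of 202 log2 fold changes of the 26 named and tested members under these settings, 23 changed sign, in 11 genes. With the covariate these were Krtap3-3 (-0.11), Krtap14 (-0.25), Krtap15 (-0.26), Krtap7-1 (-0.15) and Krtap5-5 (-0.72). With limma on log2(FPKM + 0.1) and on log2(FPKM + 1) they were Krtap3-3 (-0.12 and -0.092), Krtap14 (-0.011 and -0.0092), Krtap6-1 (-0.036 and -0.030), Krtap8-1 (0.036 and 0.036), Krtap7-1 (-0.051 and -0.051) and Krtap5-5 (-0.42 and -0.031). With the replicate block they were Krtap4-2 (0.12), Krtap4-7 (0.27), Krtap24-1 (0.021), Krtap8-1 (0.28) and Krtap5-4 (0.24), and with at least 10 counts in every library Krtap24-1 (0.0083). When each library was left out, the sign changed in 17 genes, whose log2 fold changes ran from -0.78 to 0.22 (Krtap28-13), -0.36 to 1.81 (Krtap12-1), -0.50 to 0.39 (Krtap3-3), -0.93 to 0.25 (Krtap1-5), -1.09 to 0.044 (Krtap4-1), -0.77 to 0.22 (Krtap4-7), -0.039 to 0.55 (Krtap17-1), -0.79 to 0.25 (Krtap24-1), -0.71 to 0.91 (Krtap14), -0.71 to 0.77 (Krtap15), -0.096 to 1.20 (Krtap16-3), -0.51 to 0.75 (Krtap6-1), -0.54 to 0.53 (Krtap8-1), -0.59 to 0.80 (Krtap7-1), -0.23 to 1.09 (Krtap11-1), -0.74 to 0.44 (Krtap5-5) and -0.89 to 0.41 (Krtap5-4). No member lost a call, since none had one.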
